A study of Mus musculus with 6 samples.

Results

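Transcripts of 5 peptide systems were examined in neurons of the preBötzinger Complex (preBötC), the brainstem site that generates the inspiratory rhythm. The systems were the tachykinins (precursors Tac1 and Tac2, receptors Tacr1 and Tacr3), thyrotropin-releasing hormone (Trh and its receptor Trhr), neuromedin B (Nmb and Nmbr) and gastrin-releasing peptide (Grp and Grpr). The members were chosen by name, as ligand precursors and receptors of excitatory and sigh-related peptides, and make up 10 of the 49568 gene names in the data. All 10 were found, 5 ligand precursors and 5 receptors.

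The 6 samples held 15 neurons each and came from 6 different mice of the Dbx1CreERT2; Rosa26tdTomato cross at postnatal day 2. Their dams had received tamoxifen on embryonic day 9.5. In 3 samples the neurons were tdTomato-positive (Dbx1 neurons), and in the other 3 they were neuronal somata without the fluorescence (non-Dbx1 neurons). Because tdTomato depends on recombination by Cre at the time of tamoxifen, a neuron of the lineage that had not recombined would lack it, so the non-Dbx1 group is defined by absence of a label.

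Tachykinins, TRH and the bombesin-like peptides are cut from larger precursors, stored in dense-core vesicles and read by G protein-coupled receptors that act mainly through Gq and phospholipase C. In many neurons, activation of these receptors closes potassium channels or opens cation channels and so depolarises the cell. Substance P and TRH speed the preBötC rhythm, and neurokinin 1 receptors, the product of Tacr1, have long been used to mark preBötC neurons. Neuromedin B and gastrin-releasing peptide are made by parafacial neurons that project to the preBötC, where their receptors take part in sighing.

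Expression is given as RPKM, reads per kilobase of exon scaled to the total reads on genes, with 1 value per gene and sample. Values of a group are given in the order of its samples 1, 2 and 3. The reads on genes ranged from 6464675 to 9432958 per sample, and 16536 to 19143 genes per sample had non-zero RPKM. Reads per gene were recovered from the steps between values. For Tac1, Tac2, Trhr, Nmb, Nmbr and Grp they are the fewest that fit, and the true numbers may be multiples of them. Summed RPKM of 6 neuronal markers ranged from 992.6 to 1708, and the glutamatergic marker Slc17a6 measured 47.2, 128 and 54.9 RPKM in Dbx1 neurons and 31.9, 35.1 and 13.6 in non-Dbx1 neurons. Over 4 inhibitory markers the sums were 110.9, 45.7 and 142.9 RPKM in Dbx1 neurons and 138.5, 97.7 and 142.6 in non-Dbx1 neurons, which overlap. Dbx1 itself, a gene of embryonic progenitors, was at 0 in all 6 samples. The non-Dbx1 samples stood apart from one another by markers of other cell classes. Non-Dbx1 sample 2 had a summed RPKM of 828 over 5 catecholaminergic markers, all of them present there (Dbh 338.7, Th 113.6), against 4.54 to 39.2 elsewhere, and 69.3 over 4 endothelial markers against at most 3.01 elsewhere, of which Cldn5 alone made up 63.7, while Pecam1 was at 0.0344. Non-Dbx1 sample 3 had 157 over 6 cholinergic and motor neuron markers against 3.14 to 27.8 elsewhere, of which Prph made up 94.96 and Slc18a3 37.0. In that sample Mnx1 was at 0, and Slc5a7 (7.91) was below its level in non-Dbx1 sample 2 (10.9) and Dbx1 sample 3 (8.52). In non-Dbx1 sample 1, summed RPKM was 14060 over 5 red blood cell markers and 384.6 over 6 oligodendrocyte markers, against at most 1198 and 68.3 elsewhere. The part of these differences in the results below was not tested. A lower level in a pooled sample can mean fewer neurons that make the transcript or less of it per neuron, and these cannot be told apart.

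Tac1 (chromosome 6, 7554879 to 7565834, plus strand, GRCm38) encodes the precursor of both substance P and neurokinin A, and Tac2 (chromosome 10, 127724478 to 127731768, plus strand) that of neurokinin B. The coding bases of these peptides are shown because they say what each precursor transcript can give. They were read 5′ to 3′ from GENCODE vM21 transcripts, and capitals mark the last 5 codons, the shared carboxyl end that tachykinin receptors recognise.
substance P (Tac1, chr6:7556732-7556764, exon 3, plus strand): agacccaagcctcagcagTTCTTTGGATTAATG
neurokinin A (Tac1, chr6:7559101-7559130, exon 6, plus strand): cataaaacagattccTTTGTTGGACTAATG
neurokinin B (Tac2, chr10:127729116-127729145, exon 5, plus strand): gacatgcacgacttcTTTGTGGGACTTATG
Over the 15 bases in capitals, neurokinin A shared 13 with neurokinin B and 12 with substance P. Of the 4 annotated coding transcripts of Tac1, 3 held the substance P codons and 2 held those of neurokinin A. A single value per gene does not separate these transcripts.

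Tac1 was the most abundant of the 10 transcripts in every sample. It measured 158, 334 and 167 RPKM in Dbx1 neurons and 130.3, 13.2 and 39.2 in non-Dbx1 neurons, from 530 to 11824 reads. Every Dbx1 sample lay above every non-Dbx1 sample, although Dbx1 sample 1 and non-Dbx1 sample 1 were close. The means were 219.5 ± 99.0 and 60.9 ± 61.5 RPKM (SD, n = 3), a ratio of 3.61. L2FC, the difference between group means of log2(RPKM + 1), was 2.30 ± 0.709 (SE) in favour of the Dbx1 samples, with FDR = 0.853 by limma over 17614 genes. It did not pass the FDR threshold of 0.1. The unadjusted limma p was 0.011, and the exact two-sided permutation test gave p = 0.10, the smallest possible for 3 samples against 3. Without non-Dbx1 sample 2, the L2FC was 1.51. By mean RPKM over the 6 samples, Tac1 stood in place 270 of all genes, with places between 80 and 3613 in single samples.

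Tac2 was read in only 2 samples. RPKM was 0, 13.5 and 0 in Dbx1 neurons and 0, 1.64 and 0 in non-Dbx1 neurons. The values in Dbx1 sample 2 and non-Dbx1 sample 2 correspond to at least 94 and 13 reads, the fewest whole numbers that give them. In the other 4 samples, 3 reads would have been 0.343 to 0.501 RPKM. With reads in 2 samples it was below the filter for testing, which asked for non-zero RPKM in at least 3.

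Tacr1 (chromosome 6, 82402334 to 82560104, plus strand) encodes the neurokinin 1 receptor, which prefers substance P. It measured 1.86, 5.86 and 2.91 RPKM in Dbx1 neurons and 1.22, 0.116 and 1.94 in non-Dbx1 neurons. The groups overlapped, since non-Dbx1 sample 3 lay above Dbx1 sample 1. L2FC was 1.13 ± 0.631 (SE; limma FDR = 0.924), and so was not called. It was 0.73 without non-Dbx1 sample 2 and 1.97 with a pseudocount of 0.1. Tacr1 had at least 12 reads in all 6 samples, and so was the one receptor gene of the 5 with reads everywhere.

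Tacr3 (chromosome 3, 134829007 to 134934579, plus strand) encodes the neurokinin 3 receptor, which prefers neurokinin B. RPKM was 1.61, 3.53 and 4.13 in Dbx1 neurons and 0.247, 0 and 3.44 in non-Dbx1 neurons. All 3 Dbx1 samples held 48 reads or more, while the non-Dbx1 samples ranged from 0 to 122. The L2FC of 1.15 ± 0.703 (SE) had a limma FDR of 0.936, and non-Dbx1 sample 3 lay among the Dbx1 samples. It was 0.74 without non-Dbx1 sample 2, 1.81 without non-Dbx1 sample 3, and 2.58 with a pseudocount of 0.1. Tacr3 and its preferred ligand precursor Tac2 both had at least 3 reads in 1 sample, Dbx1 sample 2, whereas Tac1 and Tacr1 did in 6 of 6.

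**Figure D1:**
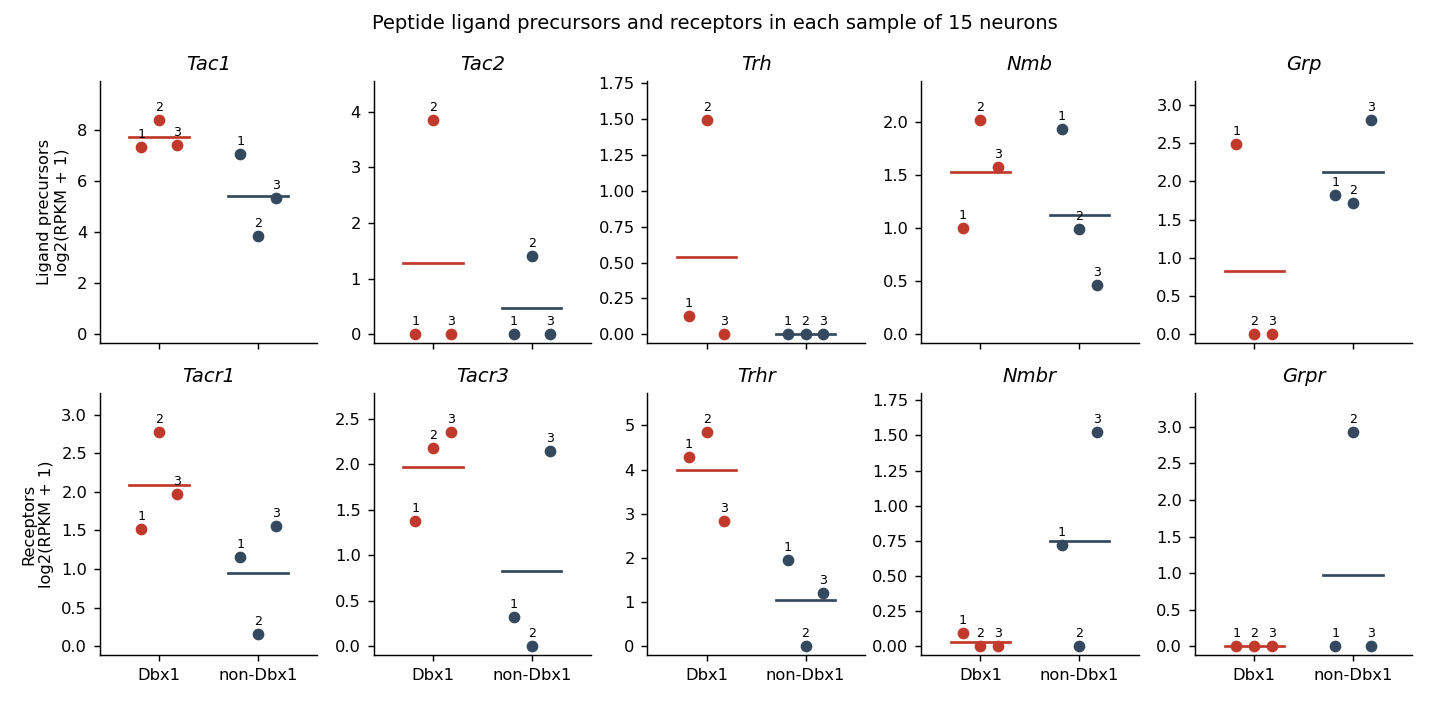
Level of each gene in each sample of 15 neurons, as log2(RPKM + 1), with ligand precursors in the upper row and receptors in the lower; the y axes differ between panels. Points are samples, numbered by replicate, and horizontal lines are group means (n = 3). Tac1 and Trhr have every Dbx1 sample above every non-Dbx1 sample, and the points of Tac2, Trh and Grpr are at 0 in 4, 4 and 5 samples.

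TRH is a tripeptide cut in several copies from 1 precursor. The coding region of Trh (chromosome 6, 92242061 to 92244650, minus strand) held 5 copies of the TRH codons between basic cleavage sites, all in exon 3. They are shown because a read on Trh stands for a precursor with 5 copies of the peptide, in 4 spellings that differ in the last base of the middle or final codon.
copy 1 (chr6:92243097-92243105, minus strand): cagcatccg
copy 2 (chr6:92243001-92243009, minus strand): cagcaccct
copy 3 (chr6:92242866-92242874, minus strand): cagcaccct
copy 4 (chr6:92242812-92242820, minus strand): cagcatcca
copy 5 (chr6:92242719-92242727, minus strand): cagcatcct

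Trh measured 0.0909, 1.82 and 0 RPKM in Dbx1 neurons and 0 in each of the 3 non-Dbx1 samples. These values were 1 and 19 reads, so that only Dbx1 sample 2 passed the floor of 3 reads. In samples at 0, 3 reads would have been 0.23 to 0.335 RPKM. Serotonergic neurons of the raphe are a known source of TRH. Of their 3 markers, only Tph2 had any value, 3.36 RPKM in Dbx1 sample 1, and Slc6a4 and Fev were at 0 in all 6 samples.

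Trhr (chromosome 15, 44196135 to 44235912, plus strand) encodes the main TRH receptor. Its mean RPKM was second to that of Tac1 over the 6 samples and in the Dbx1 samples, and in place 5 in the non-Dbx1 samples. Trhr measured 18.5, 28.0 and 6.10 RPKM in Dbx1 neurons and 2.85, 0 and 1.31 in non-Dbx1 neurons. Every Dbx1 sample, with 189 to 938 reads, lay above every non-Dbx1 sample, with 0 to 82. The means were 17.5 ± 10.97 and 1.39 ± 1.43 RPKM (SD, n = 3), a ratio of 12.6. The L2FC of 2.94 ± 0.709 (SE) was in place 12 among genes with a positive L2FC and in place 67 of all genes by p (limma p = 0.00288, FDR = 0.724; exact two-sided permutation p = 0.10). It did not pass the FDR threshold, and with non-Dbx1 sample 2 left out the L2FC was 2.41. Trhr and Trh both had at least 3 reads in 1 sample.

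In 3 of 3 Dbx1 samples Trhr had the highest RPKM of the 5 receptors and held 46.5% to 83.9% of their summed RPKM. Of the non-Dbx1 samples, the first had 57.5% of that sum in Trhr, the second 0% and the third 15.3%. The sums were 21.98, 37.4 and 13.1 RPKM in Dbx1 neurons and 4.96, 6.74 and 8.57 in non-Dbx1 neurons. Without Trhr, the sums of the other 4 receptors were 3.53, 9.39 and 7.03 against 2.11, 6.74 and 7.26 RPKM, which overlap. By deposited RPKM, Grpr was the highest receptor in non-Dbx1 sample 2 and Tacr3 in non-Dbx1 sample 3. These shares, sums and ranks depend on the exon length behind each value, as described below.

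**Figure D2:**
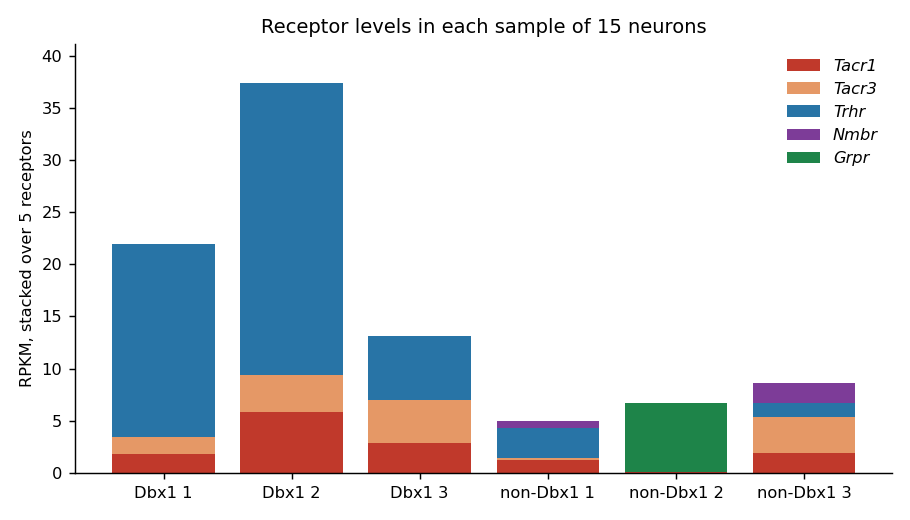
Stacked RPKM of the 5 receptors (y axis) in each of the 6 samples (x axis), with 1 colour per gene. Trhr makes up most of the bar in Dbx1 samples 1 and 2 and in non-Dbx1 sample 1, and nearly all of the bar of non-Dbx1 sample 2 is Grpr.

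Nmb (chromosome 7, 80902227 to 80905076, minus strand) encodes the precursor of neuromedin B, and its receptor Nmbr lies on chromosome 10 (14705591 to 14770850, plus strand). The coding bases of the last 10 codons of neuromedin B are shown to set its carboxyl end beside that of the tachykinins. They lie on exons 1 and 2, and capitals mark the last 4 codons. The final codon is methionine, as in the tachykinins above.
neuromedin B (Nmb, chr7:80904296-80904839, minus strand): ggcaacctctgggcgaccGGTCACTTCATG
Nmb measured 1.005, 3.07 and 1.98 RPKM in Dbx1 neurons and 2.82, 0.986 and 0.376 in non-Dbx1 neurons, from 8 to 52 reads. It was low and present in all 6 samples, and non-Dbx1 sample 1 lay among the Dbx1 samples while the other two non-Dbx1 samples lay below them. L2FC was 0.41 ± 0.598 (SE; limma FDR = 0.964), with 0.81, 0.67, 0.16 and 0.07 without non-Dbx1 sample 1, Dbx1 sample 1, Dbx1 sample 2 and non-Dbx1 sample 3. In the annotation, 163 bases (20.6%) of its exons overlap Sec11a on the same strand, which measured 9.11 to 16.7 RPKM, so the assignment of reads there is uncertain.

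Nmbr measured 0.0683, 0 and 0 RPKM in Dbx1 neurons and 0.644, 0 and 1.88 in non-Dbx1 neurons. Its reads numbered 3, 0, 0, 23, 0 and 98, so that most came from non-Dbx1 samples 1 and 3, and non-Dbx1 sample 2 was at 0 like 2 of the Dbx1 samples. The L2FC was −0.72 ± 0.369 (SE; limma FDR = 0.918), and −1.09 without non-Dbx1 sample 2. For so low a gene the pseudocount sets the size, and with 0.1 in place of 1 it was −2.15. Counting ignored strand, and 504 bases (15.6%) of its exons overlap B230364G03Rik on the opposite strand, a gene at 0 in all 6 samples. Nmb and Nmbr both had at least 3 reads in 3 samples.

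Grp (chromosome 18, 65872820 to 65886596, plus strand) encodes the precursor of gastrin-releasing peptide. RPKM was 4.60, 0 and 0 in Dbx1 neurons and 2.54, 2.30 and 6.01 in non-Dbx1 neurons. Grp was thus read in 3 of 3 non-Dbx1 samples, with 36 to 124 reads, and in 1 Dbx1 sample, with 80. Dbx1 sample 1 lay between the non-Dbx1 samples, and the L2FC of −1.29 ± 0.794 (SE) had a limma FDR of 0.936. Without Dbx1 sample 1 its L2FC was −2.12 and its unadjusted limma p 0.00924, with no call at the FDR threshold. With a pseudocount of 0.1 the L2FC was −3.23.

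Grpr (chromosome X, 163513904 to 163549677, minus strand) encodes the receptor for gastrin-releasing peptide. It had 143 reads (6.62 RPKM) in non-Dbx1 sample 2 and 0 in the other 5, where 3 reads would have been 0.126 to 0.184 RPKM. In the Dbx1 samples Grpr was at 0, and Nmbr measured 0.0683, 0 and 0 RPKM. The sample with Grpr was the one with the high catecholaminergic markers and Cldn5 given above. Their part in the Grpr level was not tested.

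None of the 7 members that passed the filter differed between groups at FDR under 0.1. Over all 17614 genes, 0% were called with Dbx1 above non-Dbx1 and 0.00568% (1 gene) with the opposite sign. At an unadjusted p under 0.05 there were 480 and 436 genes (2.73% and 2.48%), and 2 members, Tac1 and Trhr, were among the former. These same 2 members had every Dbx1 sample above every non-Dbx1 sample, as did 5.35% of all genes, and no member had the opposite order, which 5.24% of all genes had. The L2FC was above 0 for 5 of the 7 members and for 50.8% of all genes. It was below 0 for 2 members, Nmbr and Grp, and for 49.2% of all genes. The median was 1.13 for the members and 0.00892 for all genes. Since 7 genes that passed a filter are few and were chosen by name, these counts describe them only.

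**Figure D3:**
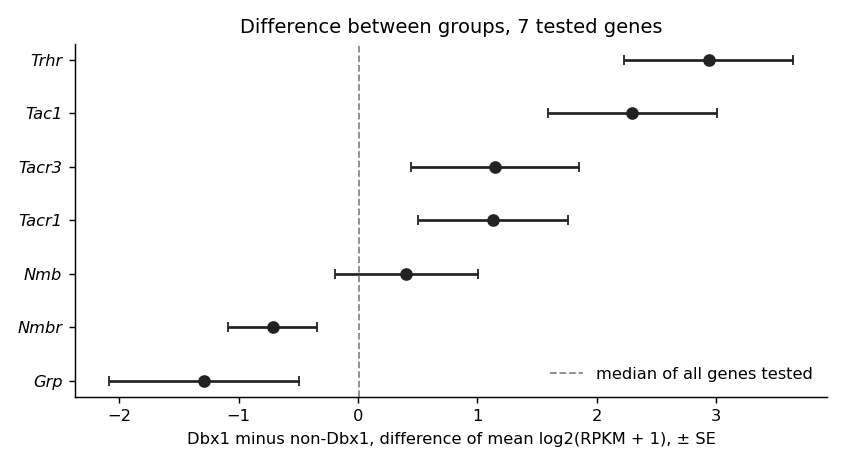
Difference between the Dbx1 and non-Dbx1 group means of log2(RPKM + 1) (x axis) for the 7 tested genes, with bars of 1 limma SE (n = 3 per group) and the median of all genes tested as a dashed line. Trhr (2.94) and Tac1 (2.30) lie farthest to the right and Grp (−1.29) farthest to the left, and none passed FDR 0.1.

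By mean RPKM over the 6 samples, the order was Tac1 (140.2), Trhr (9.45), Grp (2.57), Tac2 (2.52), Tacr1 (2.32), Tacr3 (2.16), Nmb (1.70), Grpr (1.104), Nmbr (0.432) and Trh (0.319). RPKM of different genes was compared within each sample. Tac1 exceeded Trhr in 6 of 6 samples, by 4.03 ± 0.735 on the log2(RPKM + 1) scale (SD, n = 6; exact sign-change permutation p = 0.031, the smallest possible). Adjusted over the 9 neighbouring pairs this was 0.281. No other neighbouring pair had an unadjusted p below 0.219, so neighbours from Trhr down were not resolved by these samples. Members farther apart in the order were not compared by a test. In the Dbx1 samples alone Tac2 (4.49) and Tacr1 (3.54) followed Tac1 and Trhr, and in the non-Dbx1 samples alone Tac1 was followed by Grp (3.62), Grpr (2.21), Nmb (1.39) and Trhr (1.39). Tac2 and Grpr owe most of their means to 1 sample each.

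The order also depends on the exon length behind each RPKM. Lengths recovered from the values equalled an annotated one for 4 members, and of these only Tacr1 has overlapping exons, which were counted repeatedly (12058 bases against 6491 merged). For the other 6 the recovered length, the smallest that gives whole reads, equalled no annotated one, so their values on merged lengths rest on the fewest reads that fit. A gene has 1 length in all samples, so this moves the comparison between groups only through the pseudocount. On merged exon lengths, mean RPKM was 194 for Tac1, 10.5 for Trhr, 4.84 for Nmb, 4.30 for Tacr1, 3.81 for Grp and 1.69 for Tac2. Nmb moved from place 7 to place 3 and Tac2 from place 4 to place 7, while Tac1 and Trhr stayed in the first 2 places. Among the receptors in non-Dbx1 sample 3, Tacr1 (3.61) then lay above Tacr3 (3.44). The share of Trhr in the receptor sums also rests on the lengths used.

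Of the related genes outside the 10, Tac4 (the precursor of hemokinin), Tacr2 (the neurokinin 2 receptor) and Brs3 (an orphan bombesin-like receptor) were at 0 in all 6 samples. Trhr2, a second TRH receptor of rodents, measured 0, 0 and 0.107 RPKM in Dbx1 neurons and 0, 2.97 and 0.317 in non-Dbx1 neurons. Its highest value was in non-Dbx1 sample 2, where Trhr was at 0. The L2FC of Trhr2 was −0.75 ± 0.472 (SE; limma FDR = 0.936).

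Genes that make, remove or act downstream of these peptides were summarised in 4 further lists, of which 58 of 61 genes were tested and 0 passed FDR 0.1 in either direction. All 12 genes for peptide processing and dense-core release were tested, and 9 had an L2FC above 0, with a median of 0.154. Scg5, the chaperone of prohormone convertase 2, measured 398, 467 and 389 RPKM in Dbx1 neurons and 179, 248 and 352 in non-Dbx1 neurons (L2FC 0.73 ± 0.289 SE, limma FDR = 0.912). Furin, a convertase of the secretory pathway, measured 0.0156, 0.206 and 0.428 against 0.978, 0.927 and 1.42 RPKM (L2FC −0.80 ± 0.314 SE, limma FDR = 0.912). For both genes the groups did not overlap, in opposite directions, as for 5.35% (Dbx1 higher) and 5.24% (non-Dbx1 higher) of all genes. Both were named for having the lowest p in the list, so this separation describes them only.

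Of 10 peptidases of the breakdown list, 5 had an L2FC above 0 and 5 below, with a median of 0.0234. Ece1, which cleaves substance P after uptake with its receptor, measured 3.32 ± 1.61 RPKM in Dbx1 neurons and 7.14 ± 1.35 in non-Dbx1 neurons (SD, n = 3; limma FDR = 0.915). Nln, the oligopeptidase neurolysin, was the most abundant of the list at a mean of 19.5 RPKM, with 26.4 ± 14.2 and 12.6 ± 4.13 in the groups (limma FDR = 0.924).

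In the Gq signalling and receptor desensitisation list, 20 of 21 genes were tested, 11 with an L2FC above 0, and the median was 0.0682. Grk3, a kinase that phosphorylates activated receptors, measured 1.84, 4.55 and 3.84 RPKM in Dbx1 neurons and 11.7, 13.5 and 6.87 in non-Dbx1 neurons. Its groups did not overlap (L2FC −1.42 ± 0.468 SE, limma FDR = 0.87), an order that 5.24% of all genes had. Grk3 was likewise named for its low p. Plcb3, a phospholipase C, measured 2.52 ± 1.35 against 0.501 ± 0.663 RPKM (SD, n = 3; limma FDR = 0.912). Rgs4, which shortens G protein signals, was the most abundant at a mean of 41.3 RPKM and ranged from 25.1 to 81.3 (limma FDR = 0.968).

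Of the channels that such receptors close or open, 16 of 18 were tested, 9 with an L2FC above 0, and the median was 0.0359. Trpc4, a cation channel opened downstream of Gq, measured 4.85, 9.78 and 0.96 RPKM in Dbx1 neurons and 0.781, 0.443 and 0.197 in non-Dbx1 neurons (L2FC 1.78 ± 0.708 SE, limma FDR = 0.912). Kcnd2, an A-type potassium channel, measured 25.5, 21.1 and 23.9 against 6.67, 13.8 and 17.98 RPKM (L2FC 0.92 ± 0.374 SE, limma FDR = 0.912). Every Dbx1 sample lay above every non-Dbx1 sample for both, as for 5.35% of all genes, and both were named for their low p. Nalcn, a sodium leak channel modulated by substance P, was chosen after its values were seen and measured 7.84 to 15.5 RPKM, with an L2FC of 0.05 ± 0.361 (SE; limma FDR = 0.992).

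**Figure D4:**
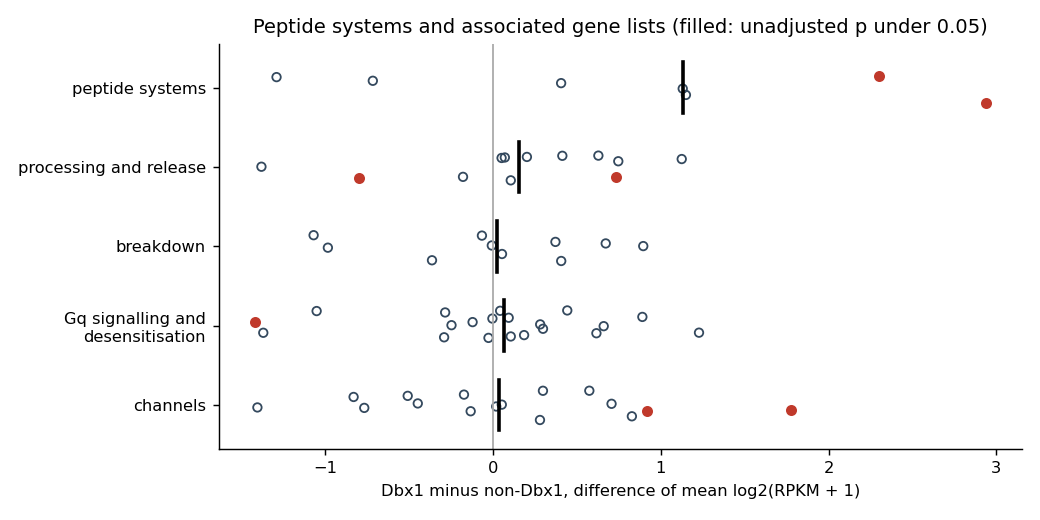
Difference between group means of log2(RPKM + 1) (x axis, positive where Dbx1 samples were higher) for each tested gene of the peptide systems and of the 4 lists of associated genes. Each point is a gene, filled where the unadjusted limma p was under 0.05, and black lines are list medians, which were 1.13 for the peptide systems and between 0.0234 and 0.154 for the others.

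The genes whose pattern over the 6 samples was closest to a member were sought among 13163 tested genes with a mean of at least 1 RPKM, by the root-mean-square difference between log2(RPKM + 1) profiles centred on their means. Nearest to Tac1 were Gm27217 (0.484), St8sia5 (0.59) and Cntnap4 (0.593), against a spread of 1.52 for Tac1 itself. For Tacr1 they were Ktn1 (0.156), Astn2 (0.194) and Gm43486 (0.202), with a spread of 0.793. Those nearest to Nmb were Gtpbp2 (0.131), Wnk1 (0.149) and Chd4 (0.15), with a spread of 0.56. With 6 samples and so many genes compared, these are descriptions of likeness and carry no test.

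Dbx1 sample 2 held the highest RPKM of 6 members (Tac1, Tac2, Tacr1, Trh, Trhr and Nmb). It was also the sample with the highest Slc17a6 and the lowest summed inhibitory markers (45.7). Summed RPKM of the 10 members was 186, 389.5 and 182 in Dbx1 neurons and 141, 24.8 and 54.2 in non-Dbx1 neurons, and most of each sum in the Dbx1 samples was Tac1. By group, the summed red blood cell markers ranged from 90.3 to 507 RPKM in Dbx1 neurons and from 733 to 14060 in non-Dbx1 neurons, and those of catecholaminergic neurons from 4.54 to 15.2 and from 16.6 to 828. Neither sum overlapped between groups, but the catecholaminergic sums of Dbx1 sample 3 (15.2) and non-Dbx1 sample 3 (16.6) were close. In non-Dbx1 sample 3, Th, Dbh and Slc6a2 were at 0. Taken singly, Th, Slc18a2 and the red blood cell marker Alas2 overlapped between groups. So did Dbh and Slc6a2, which were at 0 in samples of both groups, and Pnmt was the only catecholaminergic marker that did not overlap. At an unadjusted limma p under 0.05, 4 of 5 red blood cell genes and 1 of 3 tested catecholaminergic genes (Pnmt) were higher in non-Dbx1 neurons, as were 2.48% of all genes. The part of these marker genes in the differences of Tac1 and Trhr was not tested.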

How the data were processed

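Each sample of 15 aspirated neurons was amplified to complementary DNA and sequenced. The authors aligned reads with TopHat2 to mm10, counted them per gene without regard to strand with HTSeq, and deposited RPKM for 49568 gene names, computed from exon length and without scaling between samples. The release of their annotation was not given in the sources used here. Counts were tested by the authors with DESeq2, but only RPKM was analysed here.

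Differences of log2(RPKM + 1) between 3 Dbx1 and 3 non-Dbx1 samples were tested two-sided in R 4.3.3 by limma 3.58.1, with a trended eBayes prior. This covered the 17614 genes that had reads in 3 samples or more, and Benjamini-Hochberg FDR was called under 0.1. Reads per gene were recovered from the steps between RPKM values, to within 0.002 reads, taking the fewest reads that fit each value, and account for 99.6% to 99.7% of reads on genes. Of 15619 genes whose summed and merged exon lengths differ, 4198 gave whole reads from the summed length and 35 from the merged one alone, while the rest matched neither length in the annotation used here. Floors of 3 reads cover counting error only, since reads of amplified complementary DNA are not independent molecules.

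Genes were matched by name to GENCODE vM21 on GRCm38, the same assembly as mm10, for 47214 names (95.3%). Levels of neighbouring members were compared by exact two-sided sign-change permutation tests. The fit was first tested on simulated data. Changes were simulated only in genes with more reads than Tacr3, Nmb, Nmbr and Grp had, so that test does not cover these members. Alternatives were a pseudocount of 0.1, a filter of at least 1 sample above 0 or of RPKM of at least 1 in 3 samples, size factors, quantile normalization, no trend, the replicate number as a block, each sample left out, voom on recovered reads (genes with at least 10 reads in 3 samples) and the ratio of mean RPKM. The merged exon length was added after seeing the data. Members and lists were chosen with earlier results of these data known. All members are named. From each list of associated genes the text names those with FDR under 0.1, or else the 2 with the lowest p and the most abundant one, and every related gene of the same families. Python 3.11.15 served for all else (scipy 1.17.1, pandas 2.3.3, numpy 2.4.6, matplotlib 3.10.9). One marker gene is not reported here.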

Additional observations from a re-analysis of the deposited data

How the results depend on the processing

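None of the 7 tested members changed direction or passed FDR 0.1 under any alternative fitted. L2FC ranged from 1.51 to 3.12 for Tac1 and from 2.41 to 5.46 for Trhr, with FDR between 0.422 and 0.999, and both had p under 0.05 in 14 of 14 alternatives with a test. The L2FC range was 0.733 to 2.28 for Tacr1, 0.739 to 3.50 for Tacr3, 0.073 to 0.933 for Nmb, −5.21 to −0.694 for Nmbr and −4.30 to −0.876 for Grp. Tacr3 had p under 0.05 only without non-Dbx1 sample 3, Grp only without Dbx1 sample 1, and Nmbr in 1 of 9 alternatives with a test.

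The number of genes called higher in non-Dbx1 samples, 1 as reported, was 3 without the trend and 0 with genes above 0 in at least 1 sample, with a pseudocount of 0.1, with voom on recovered reads and with the replicate block. With samples left out in turn it ranged from 0 to 1, as did the number higher in Dbx1 samples. Of 59 tested genes of the associated lists and related genes, those with p under 0.05 numbered 3 higher in Dbx1 and 2 higher in non-Dbx1 samples. Over all genes the shares were 2.73% and 2.48%, so counts this small describe these genes only. The counts were 1 and 1 with genes above 0 in at least 1 sample. Without the trend 4 were higher in non-Dbx1 samples. Leaving out samples gave 0 to 3 and 1 to 5. Without non-Dbx1 sample 2 there were 0 and 1.

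Same-numbered samples came from different animals, and their deviations from the group means correlated at −0.107, 0.0248 and −0.0522. Pairs with different numbers gave −0.0824 to 0.133. Deviations within a group of 3 sum to 0, so these values do not decide whether same-numbered samples shared a batch. With the replicate block, 440 and 379 genes had p under 0.05 in the 2 directions and 1 gene of the associated lists was higher in non-Dbx1 samples at that p.

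Among neighbouring members, differences in log2(RPKM + 1) changed sign in 15 cases, all with p above 0.1. With a pseudocount of 0.1, Tacr3 minus Nmb was −0.295 and Grpr minus Nmbr −0.314. In the Dbx1 samples alone, Grp minus Tac2 was −0.457, Grpr minus Nmbr −0.0318 and Nmbr minus Trh −0.509. In the non-Dbx1 samples alone, Trhr minus Grp was −1.07 and Tacr3 minus Nmb −0.305. On merged exon lengths, Tacr3 minus Nmb was −0.952 and Grpr minus Nmbr −0.0629. With samples left out in turn, Tacr3 minus Nmb ranged from −0.257 to 0.403, with the lowest value and −0.0761 without sample 3 of the non-Dbx1 and the Dbx1 group. Tacr1 minus Tacr3 ranged from −0.0187 (without non-Dbx1 sample 1) to 0.266, Nmbr minus Trh from −0.162 (without non-Dbx1 sample 3; −0.000212 without sample 1) to 0.443, and Grpr minus Nmbr from −0.468 (without non-Dbx1 sample 2) to 0.424.

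Depth and 3 samples per group limit these values. Members with under 20 reads in a sample, among them Trh and Nmb, cannot be ordered there, and an RPKM of 0 is an absence of reads from 15 neurons at this depth.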
